A study of Mus musculus with 4 samples.

Results

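Keratins are the intermediate filament proteins of epithelial cells. They assemble only as pairs of an acidic type I chain and a basic or neutral type II chain, and the pair a cell makes is widely used to tell epithelial layers apart: *Krt5* with *Krt14* in basal layers, and *Krt8* or *Krt7* with *Krt18* or *Krt19* in simple and luminal epithelium. Filaments are anchored to neighbouring cells at desmosomes and to the basal lamina at hemidesmosomes. The 6 keratins described here were chosen by name: the type II genes *Krt5*, *Krt7* and *Krt8* and the type I genes *Krt14*, *Krt18* and *Krt19*. They are 6 of 37 keratin genes and of 16892 genes in the count table, and they held 78056 of 89797 keratin UMIs (86.9%).

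The cells came from adult male FVB/NJ mice aged 10 to 12 weeks, with no treatment and no genetic change named in the labels. The epididymis matures and stores sperm, and its epithelium holds principal cells (secretory and absorptive), clear cells (acid-secreting) and basal cells. Organs of 4 mice were cut into 4 regions, the 8 pieces of each region were pooled, sperm were washed away, and 1 library of single cells on the 10x platform was made per region. The libraries were labelled caput (1433 cells, 4408989 UMIs), corpus (2325 cells, 6602962 UMIs), cauda (1616 cells, 4882822 UMIs) and vas deferens (3506 cells, 10744928 UMIs). Each region is a single library, so region and library cannot be told apart, nothing was tested between regions, and intervals below are 95% intervals for counting error only.

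Cell populations are those deposited by the authors, 34 in all, grouped here into 7 types. Basal cells numbered 1412 in 4 populations, principal cells 3956 in 15 and clear cells 348 in 3. Levels are UMIs of a gene per 1000000 UMIs of a group of cells (UPM), with exact Poisson intervals. UMIs were counted at the 3′ ends of transcripts and do not scale with transcript length, so levels of different keratins were compared directly. The authors recognised basal clusters partly by *Krt14*, and all clusters were made from these same counts, so differences between types are given as descriptions.

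Some cells went against their labels. A basal-macrophage population of 15 cells had 2 keratin genes detected among the 6, *Krt5* and *Krt14*, both at 85.6 UPM (2 UMIs each, 10.4 to 309), and *Cd74*, a marker of antigen-presenting cells, gave 277 UMIs in it, while of the 7 basal markers *Bcam* (3 UMIs), *Itga6* (2), *Cldn1* (2) and *Adm* (1) were detected and *Trp63*, *Itgb4* and *Egfr* were at 0. A low-UMI clear population of 54 cells, which the deposited table names for *Krt14*, held 24 *Krt14* UMIs, of which 23 came from its 13 vas deferens cells. In those 13 cells the 7 basal markers were all detected (47 UMIs, *Adm* leading with 27), the clear markers *Atp6v1a*, *Atp6v1g3*, *Atp6v1b1* and *Foxi1* were at 0, and *Atp6v0c* had 13 UMIs. Across libraries 43 cell barcodes occurred more than once, in 86 of 8880 cells. With these cells included, each marker list was detected in full in all 3 epithelial types, but its summed level was highest in its own. The 7 basal markers summed to 2821 UPM in basal (*Adm* the most abundant), 307 in clear and 107 in principal cells. The 5 clear markers summed to 11613 UPM in clear (*Atp6v1g3*), 644 in basal and 524 in principal cells. The 5 principal markers summed to 2806 UPM in principal (*Adam7*), 742 in clear and 256 in basal cells. In principal cells of vas deferens they summed to 799 UPM, led by *Cldn3*, against 7108 in caput, 3264 in corpus and 3573 in cauda. *Adam7* was at 14.5 UPM in vas deferens and 6516 in caput. The part of this shift in the keratin levels was not tested.

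Basal cells carried all 6 keratins. *Krt5* and *Krt14* were low in both luminal types, *Krt7* was shared by basal and clear cells, *Krt8* and *Krt18* were high in all 3 epithelial types, and *Krt19* was highest in principal cells of vas deferens and present in basal cells of every library, with lower levels in proximal principal cells and in clear cells outside vas deferens. The 6 together made up 0.764% of basal UMIs, 0.380% of clear UMIs and 0.255% of principal UMIs. Of the 12 stromal, muscle, endothelial and immune populations, pooled over libraries, none exceeded 62.0 UPM for any of the 6 (*Krt18* in macrophages, 37.3 to 96.8). Within a library some were higher, up to 224 UPM of *Krt18* in stem-like stromal cells of corpus (6 UMIs, 82.2 to 488), and so were the 50 endothelial cells of caput, with 176.5 UPM of *Krt18* (25 UMIs, 114 to 261) and 155 UPM of *Krt8* (22 UMIs, 97.4 to 235). Muscle markers in endothelial cells summed to 1885 UPM in caput, 882 in corpus, 134 in cauda and 163 in vas deferens. The principal marker *Adam7* and the basal marker *Cldn1* were at 49.4 UPM each in those of caput. The part of other cell types in these values was not tested.

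**Figure D1:**
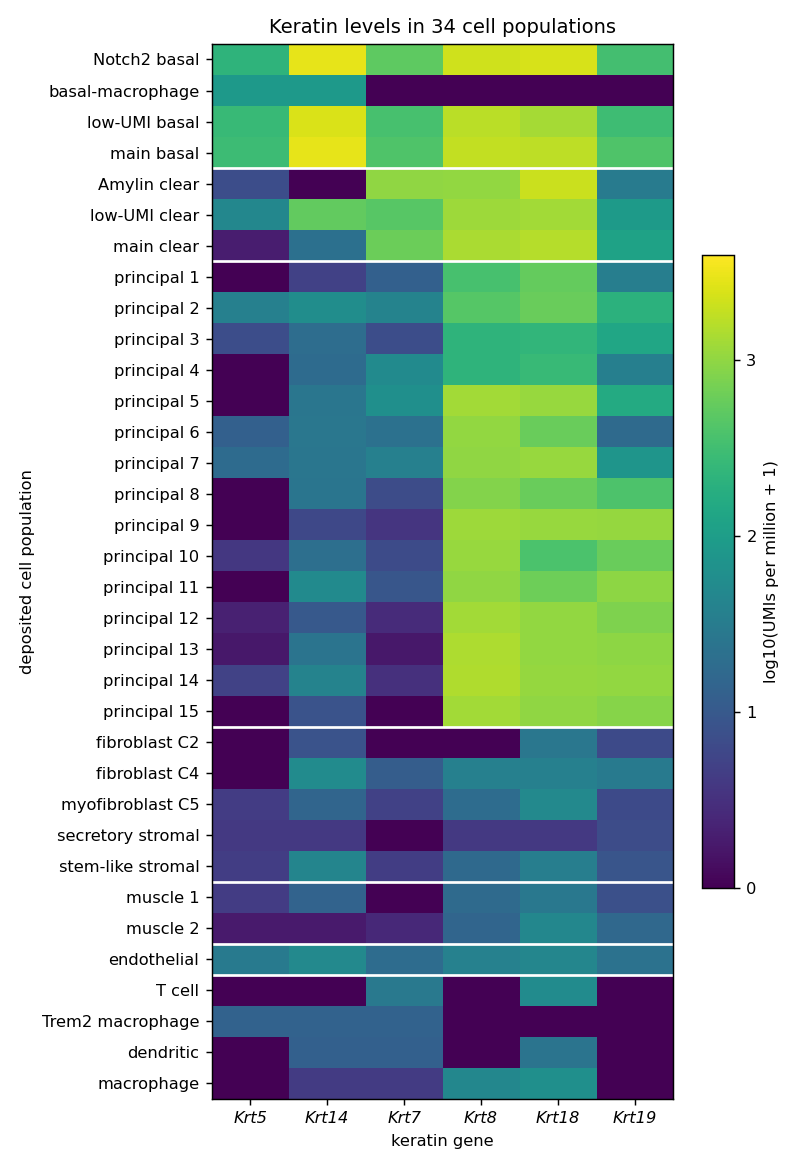
Levels of the 6 keratins in the 34 deposited populations, as log10(UPM + 1), with white lines between cell types. *Krt5* and *Krt14* stand out in 3 of the basal populations, *Krt7* in basal and clear cells, *Krt8* and *Krt18* across the epithelium, and *Krt19* strengthens from principal 8 on; pooled over libraries, no non-epithelial population is above 62.0 UPM.

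*Krt14* encodes the type I partner of *Krt5* and lies on chromosome 11 (100203162 to 100207548, minus strand, GENCODE M21 on GRCm38, the same assembly as the authors' mm10). In basal cells it had 2171 UPM in caput, 3019 in corpus, 3610.2 in cauda and 2849 in vas deferens. In principal cells it had 33.7, 26.8, 20.1 and 18.2 UPM in the same order. The basal level was thus far above the principal level in every library, by 64.5-fold (49.8 to 85.2) in caput, 113-fold (82.0 to 159) in corpus, 179-fold (129 to 258) in cauda and 157-fold (127 to 197) in vas deferens. *Krt14* was the most abundant of the 6 in basal cells of every library. In clear cells it had 2, 1, 9 and 34 UMIs. Without the low-UMI clear population, 11 of the 34 in vas deferens remained, all in 2 of 25 main clear cells. This changed the basal to clear ratio there from 12.6 (8.97 to 18.2) to 36.3 (20.3 to 72.8). Of the 451 words of 50 bases in the last 500 bases of its transcripts, 43 (9.53%) also occur in *Krt16* or *Krt17*. Reads that map to several places were not counted, so the *Krt14* level is uncertain to that extent. The levels of *Krt16* and *Krt17* are uncertain too, to an extent that was not measured. *Krt18* shares 5 of 451 words (1.11%) with *Gm5200*. Genes on the other strand overlap *Krt5* (*Gm44323*, 129 bases), *Krt7* (*Gm671*, 1269 bases) and *Krt8* (*Gm36026*, 271 bases), and whether counting used the strand is not given in the sources used here, so reads of these partners cannot be told apart.

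*Krt5*, the type II partner (chromosome 15, 101707070 to 101712898, minus strand) had far fewer UMIs than *Krt14* in basal cells, 1756 against 17808. Basal levels were 468 UPM in caput, 246 in corpus, 164 in cauda and 246 in vas deferens. Caput was highest and cauda lowest, the reverse of *Krt14*, and corpus and vas deferens differed by 1.002-fold (0.875 to 1.15). In principal cells *Krt5* had 31, 16, 1 and 5 UMIs, or 17.99, 11.3, 0.575 and 1.07 UPM. The basal to principal ratio was 26.0 (18.1 to 38.6) in caput, 21.8 (13.3 to 38.5) in corpus and 230 (97.6 to 713) in vas deferens, and 286 (50.5 to 11350.1) in cauda, where it rests on 1 principal UMI. In clear cells *Krt5* had 0, 2, 0 and 3 UMIs. For the 2 libraries at 0, the exact 95% lower limits of the basal to clear ratio for counting error were 33.6 in caput and 25.5 in cauda. With the count of 0 set at a floor of 3 UMIs per library, the ratios were 41.5 and 31.7.

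*Krt7*, a type II keratin of simple and ductal epithelium (chromosome 15, 101411043 to 101430313, plus strand), was found on both sides of the basal and luminal divide. Basal levels were 247 UPM in caput, 374 in corpus, 660 in cauda and 458 in vas deferens. Clear cells had their highest level where basal cells had their lowest, with 1233 UPM in caput, 737 in corpus, 580.3 in cauda and 140.2 in vas deferens (21 UMIs). The 2 series cross in cauda: the basal to clear ratio was 0.201 (0.172 to 0.234) in caput, 0.508 (0.449 to 0.577) in corpus, 1.14 (0.994 to 1.30) in cauda and 3.27 (2.12 to 5.32) in vas deferens. Amylin-positive clear cells, all from caput and corpus, and main clear cells had overlapping intervals within a library: 1303 UPM (1121 to 1506) against 1154 (972 to 1360) in caput and 756 (637 to 891) against 727 (627 to 839) in corpus. Main clear cells alone kept the order of the libraries, down to 585 UPM in cauda and 149.8 in vas deferens. Clear markers were also lower in the 25 main clear cells of vas deferens: *Atp6v1g3* was at 3545 UPM and seen in 14 cells, against 7326 UPM and 88 of 94 cells in cauda, and *Foxi1* was at 307 against 730.3 UPM, while *Atp6v0c* was at 2575 UPM in both. The part of this shift in the *Krt7* and *Krt19* levels of these cells was not tested. Principal cells had 27.3, 43.0, 6.90 and 1.07 UPM, so that the basal level was 9.07-fold (6.67 to 12.6), 8.71-fold (6.72 to 11.5), 95.6-fold (54.4 to 186) and 429-fold (183 to 1326) higher.

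*Krt8* (type II, chromosome 15, 101996698 to 102004482, minus strand) and *Krt18* (type I, chromosome 15, 102028180 to 102032027, plus strand) are the obligate pair of simple epithelium. They lie next to each other in opposite directions, with 23698 bases between their annotated starts, and across the 34 populations their levels were more alike than those of any other pair of the 6 (Pearson r = 0.968 on log2(UPM + 10)). Because they move together, the sequence upstream of each is given here, 5′ to 3′ from 250 bases before the RefSeq start to 10 bases after it on GRCm38.p6 (chr15:102004333-102004592, minus strand, and chr15:102027966-102028225, plus strand). The RefSeq starts lie 140 bases and 36 bases inside the GENCODE genes. Capitals mark TATAAA on either strand.
Krt8: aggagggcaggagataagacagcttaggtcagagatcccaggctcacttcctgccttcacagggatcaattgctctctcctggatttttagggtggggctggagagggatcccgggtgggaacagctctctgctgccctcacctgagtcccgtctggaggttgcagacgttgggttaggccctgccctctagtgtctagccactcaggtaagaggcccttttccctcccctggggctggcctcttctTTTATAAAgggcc
Krt18: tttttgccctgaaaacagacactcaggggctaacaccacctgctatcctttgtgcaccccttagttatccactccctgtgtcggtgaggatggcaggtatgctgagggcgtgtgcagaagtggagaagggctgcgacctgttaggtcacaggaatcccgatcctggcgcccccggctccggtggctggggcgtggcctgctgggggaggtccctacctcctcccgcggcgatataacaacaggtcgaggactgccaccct

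The search covered 4 short motifs on both strands of the full windows of 300 bases for the 5 keratins that have one (*Krt19* has none). TATAAA, held by 13.6% of 32851 mouse promoter windows, occurred in *Krt8* only, once on each strand with the 2 matches overlapping. GGGCGG, held by 35.7% of windows, occurred 4 times in *Krt7* and in no other. The RefSeq windows of *Krt7* and *Krt14* lie inside the GENCODE genes and not at their annotated starts, so their matches describe these windows only. CCAAT (37.4% of windows) and TGANTCA (7.81%) occurred in none of the 5. *Krt8* held 6 CpG dinucleotides in its window and *Krt18* held 17, so the windows of the pair shared none of these 4 motifs and differed in CpG content.

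*Krt8* levels in basal cells were 1352 UPM in caput, 2334 in corpus, 2565 in cauda and 1098 in vas deferens. In principal cells they were 482, 1019.9, 942 and 1332 UPM. Basal cells were thus higher in the 3 epididymal libraries, by 2.81-fold (2.59 to 3.05), 2.29-fold (2.16 to 2.43) and 2.72-fold (2.56 to 2.90), and lower in vas deferens, at a ratio of 0.824 (0.778 to 0.872). In clear cells *Krt8* had 1087 UPM in caput, 1223 in corpus, 1544 in cauda and 1028 in vas deferens, the narrowest range of any keratin in any epithelial type (1.502-fold, 1.26 to 1.79), *Krt5* in clear cells left aside for its counts of 0.

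*Krt18* levels in basal cells were 1029.7 UPM in caput, 1990.4 in corpus, 2832 in cauda and 1516 in vas deferens. Principal cells had 575, 969, 616 and 1024 UPM, below basal cells in every library, with ratios of 1.79 (1.65 to 1.94), 2.05 (1.93 to 2.18), 4.60 (4.28 to 4.94) and 1.48 (1.41 to 1.56). Clear cells had 2249 UPM in caput, more than basal cells (ratio 0.458, 0.416 to 0.505), and 1596, 1554 and 1181 UPM in corpus, cauda and vas deferens, less than basal cells (ratios 1.25, 1.82 and 1.28). The caput is therefore the library in which clear cells held the most of both *Krt7* and *Krt18*, and basal cells the least. Among principal populations both genes were low in principal 3 (*Krt8* 217 UPM, 152 to 300, and *Krt18* 235 UPM, 167 to 321) and principal 4 (*Krt8* 217 UPM, 141 to 321, and *Krt18* 269.5 UPM, 183 to 383), which do not differ beyond counting error, and *Krt8* exceeded *Krt18* most in principal 10, mostly from the cauda, by 2.96-fold (2.43 to 3.64).

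*Krt19*, the smallest type I keratin (chromosome 11, 100140810 to 100148665, minus strand), varied along the duct in principal cells. It had 138 UPM there in caput, 65.5 in corpus, 558 in cauda and 922 in vas deferens, a 14.1-fold range (11.5 to 17.5). Basal cells had 386, 202, 543 and 636 UPM, with the corpus lowest and the vas deferens highest in both types. The basal to principal ratio went from 2.81 (2.41 to 3.29) in caput and 3.08 (2.47 to 3.89) in corpus to 0.972 (0.872 to 1.08) in cauda and 0.691 (0.641 to 0.743) in vas deferens. Pooled over libraries it was 0.667 (0.636 to 0.6996), since 1360 of the principal cells came from the vas deferens, so the pooled value hides the basal excess in caput and corpus. In clear cells *Krt19* had 63.9, 15.0, 72.5 and 507 UPM: the vas deferens was the only library in which it came near the basal level (ratio 1.25, 0.992 to 1.61), and main clear cells alone gave 521 UPM there, from 73 UMIs in 7 of 25 cells.

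Principal populations differed in *Krt19*. In principal 1, 4, 6 and 7 it was at 33.3, 34.8, 16.4 and 74.6 UPM, in principal 2, 3 and 5 at 205, 132 and 159 UPM, and in principal 8 and 10 at 397 and 589 UPM. Principal 9 and 11, which hold cells of the cauda (100 and 141) and of vas deferens (26 and 100), had 1072 and 981 UPM, and principal 12 to 15, nearly all from vas deferens, had 788, 979, 1022 and 892 UPM. *Krt8* and *Krt18* varied less over the same 15 populations, from 217 to 1477 UPM and from 235 to 1123 UPM.

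**Figure D2:**
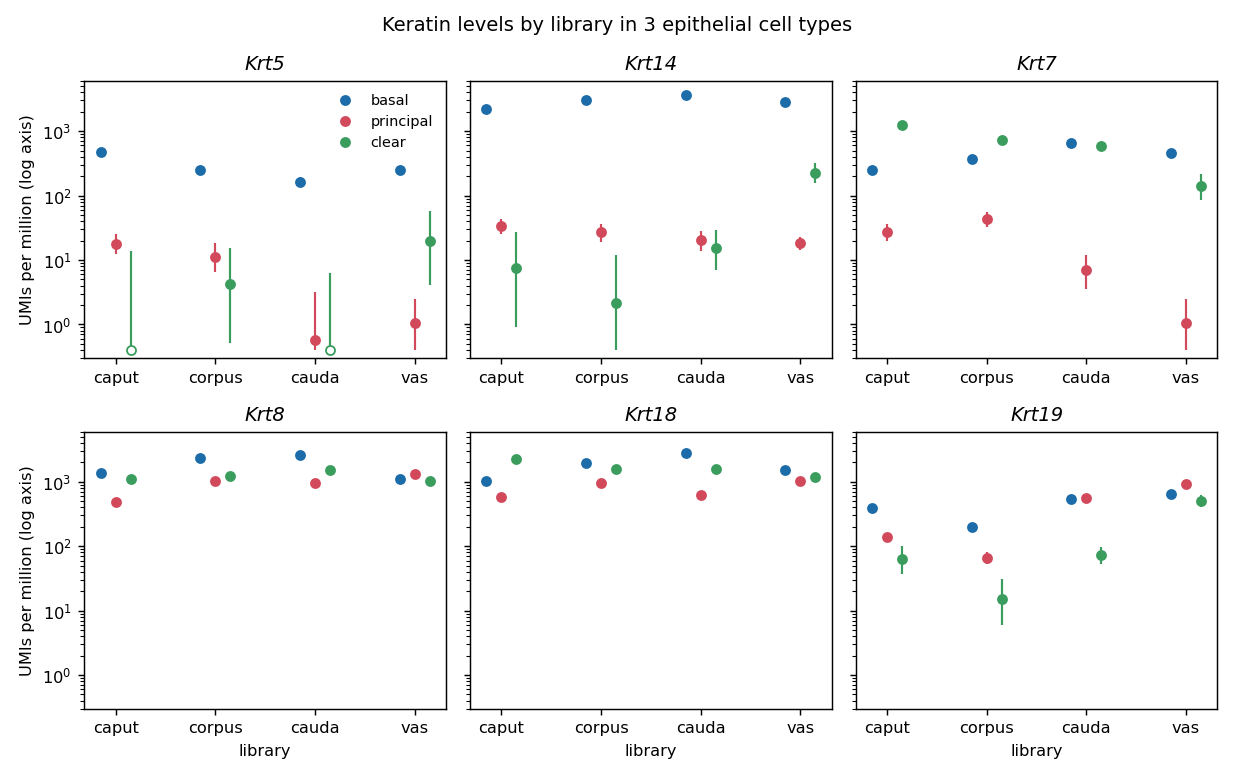
Level of each keratin (UPM, log axis) in basal, principal and clear cells of the 4 libraries, with exact 95% Poisson intervals; open symbols at the foot mark a count of 0. Basal cells sit above both luminal types for *Krt5* and *Krt14* in all 4 libraries, clear cells pass from above to below basal cells for *Krt7*, and principal cells reach 922 UPM of *Krt19* in vas deferens.

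As counts, 3 of the 6 (*Krt5*, *Krt14* and *Krt7*) were at least 2-fold higher in basal than principal cells in every library, a rule that 9.57% of 7412 genes met, and 0 were at least 2-fold higher in principal cells, against 6.68% of those genes. Against clear cells, 2 (*Krt5* and *Krt14*) were at least 2-fold higher in basal cells in every library (4.68% of 5829 genes) and 0 were higher in clear cells (10.1%). No test goes with these counts, since the clusters rest on the same UMIs. The 2 counts of genes higher in basal cells stayed at 3 and 2 at a 4-fold limit, which 3.91% and 1.61% of all genes tested met.

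**Figure D3:**
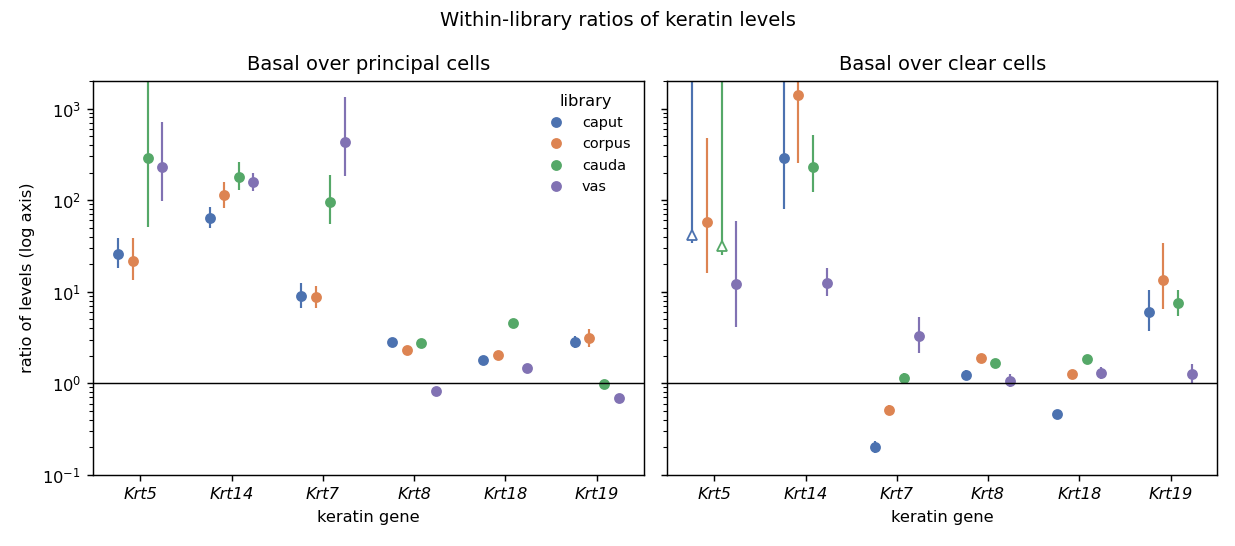
Ratio of keratin levels between basal and principal cells and between basal and clear cells within each library (log axis). Exact 95% intervals are cut at the top of the axis. Open triangles are ratios with a count of 0 set at the floor given in the text, and the exact lower limits lie below them. *Krt8* and *Krt19* fall below 1 against principal cells in vas deferens (0.824 and 0.691), and *Krt7* and *Krt18* fall below 1 against clear cells in caput (0.201 and 0.458).

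Along the duct, 5 of the 6 keratins had at least a 2-fold range over libraries in basal cells, all but *Krt14* (1.66-fold, 1.58 to 1.75), as did 43.6% of 7258 genes. In principal cells 4 of the 6 did (*Krt5*, *Krt7*, *Krt8* and *Krt19*), as did 66.7% of 9122 genes, so a range of this size in principal cells was common. The principal range of *Krt5* rests on 1 UMI in cauda. That of *Krt8* rests on caput: principal cells of corpus, cauda and vas deferens had 1019.9, 942 and 1332 UPM. Without caput, 54.3% of all genes tested had a 2-fold range in principal cells. In basal cells *Krt14*, *Krt7*, *Krt8* and *Krt18* were all highest in cauda, *Krt5* in caput and *Krt19* in vas deferens. Of the 18 pairs of libraries next to each other in these orders, 17 had a ratio whose interval, for counting error only, excluded 1. In their own orders, 15 of 18 did in main basal cells and 11 of 18 in principal cells. In clear cells 9 did and 8 did not, and 1 *Krt5* pair had no ratio, as neither library had a *Krt5* UMI. Whether an interval excludes 1 depends on the UMIs of the gene as well as on the ratio. *Krt5*, for example, had 1756 UMIs in basal cells and 5 in clear cells. No share over all genes goes with these counts of pairs, and they are not compared between types. Without the caput or without the cauda library, the count of keratins with a 2-fold range in basal cells was 2 (*Krt8* and *Krt19*) in place of 5, beside 26.0% and 32.2% of all genes tested. Other markers also differed between basal cells of the libraries. Endothelial markers summed to 17.7, 16.6, 17.8 and 101 UPM and immune markers to 56.7, 108, 66.9 and 229 UPM along the duct. *Trp63* was at 118 UPM in caput and 23.0 in cauda, and the principal marker *Cldn3* at 12.8 and 262 UPM. The part of these shifts in the keratin levels was not tested.

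The basal populations, basal-macrophage cells apart, differed less from each other, pooled over libraries, than libraries did. Main basal cells had 295 UPM of *Krt5*, 2911 of *Krt14*, 400 of *Krt7*, 1853 of *Krt8*, 1753 of *Krt18* and 407 of *Krt19*. *Notch2*-high basal cells, of which 17 of 165 came from caput, were compared with main basal cells within libraries. Their *Krt19* was the lower value in all 4 libraries (356 against 397 UPM, 132 against 218, 446 against 564 and 605 against 641 in the order of the duct), although the intervals were apart in corpus alone. Their *Krt18* was higher in caput (1837 against 1034 UPM), cauda (4059 against 2625 UPM) and vas deferens (1961 against 1453 UPM), and 2047 against 2024 UPM in corpus. Their *Krt5* was lower in caput (252 against 490 UPM) and higher in cauda (227 against 155 UPM, with overlapping intervals). Low-UMI basal cells had the lowest *Krt14* (2521 UPM) and *Krt18* (1295 UPM) of these 3 populations. Of the low-UMI basal cells 94 of 315 came from the caput, against 189 of 917 main basal cells.

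Type I exceeded type II in basal cells. UMIs of the 3 type II genes over those of the 3 type I genes were 0.576 (0.550 to 0.603) in caput, 0.567 (0.551 to 0.584) in corpus, 0.485 (0.465 to 0.506) in cauda and 0.360 (0.344 to 0.377) in vas deferens. With all keratins of each type counted, the basal ratio was 0.384 (0.377 to 0.391). In clear cells the ratio of the 3 to the 3 was 617 to 617 UMIs in caput, 1.22 in corpus, 1.29 in cauda and 0.620 (0.512 to 0.750) in vas deferens. Type I was thus in excess in clear cells of vas deferens only. There the 13 low-UMI clear cells with basal markers gave 23 *Krt14*, 19 *Krt18* and 3 *Krt19* of 287 type I UMIs, and 2 *Krt5* and 4 *Krt8* of 178 type II UMIs. Another 73 type I UMIs were *Krt19* from 7 of 25 main clear cells. In principal cells the ratio of the 3 to the 3 was 0.706, 1.01, 0.795 and 0.679. Within the simple pair, *Krt8* over *Krt18* in basal cells went from 1.31 (1.23 to 1.41) in caput through 1.17 (1.13 to 1.22) and 0.906 (0.857 to 0.957) to 0.724 (0.677 to 0.774) in vas deferens. The same ratio in clear cells was 0.483 (0.419 to 0.557), 0.766 (0.686 to 0.856), 0.993 (0.905 to 1.09) and 0.870 (0.697 to 1.09) in the same order, and in principal cells it was 0.838, 1.05, 1.53 and 1.30, lowest in caput where basal cells were highest.

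In single cells, detection was compared after drawing 1000 UMIs from each cell, which left out 257 basal, 2062 principal and 110 clear cells with fewer. A *Krt14* UMI was found in 899 of 1155 basal cells (77.8%, 75.3 to 80.2), 36 of 1894 principal cells (1.90%, 1.34 to 2.62) and 8 of 238 clear cells (3.36%, 1.46 to 6.52). In endothelial cells, which should lack it, the share was 3 of 200 (1.5%, 0.310 to 4.32), and in 158 immune cells it was 0, which allows up to 2.31%. Median depths before thinning were 4333 UMIs in basal, 934.5 in principal, 4430 in clear, 2590 in endothelial and 2887 in immune cells. The principal shares of *Krt14*, *Krt5* (0.528%, 0.254 to 0.969) and *Krt7* (1.11%, 0.688 to 1.69) overlapped the endothelial intervals, and no expression is read from these shares. By level, *Krt7* in corpus was 43.0 UPM (32.9 to 55.2) in principal cells and 0 (up to 22.4) in endothelial cells, while in caput, cauda and vas deferens it was 27.3, 6.90 and 1.07 UPM in principal cells and 42.4, 13.4 and 17.6 UPM in endothelial cells. Among principal populations, principal 5 had 61.9 UPM of *Krt7* (41.8 to 88.4). *Krt14* in caput and vas deferens was at 33.7 and 18.2 UPM in principal cells, below 49.4 and 74.8 UPM in endothelial cells. *Krt5* was at 17.99 and 1.07 UPM in principal cells of these libraries, below 49.4 and 37.4 UPM. In corpus and cauda, endothelial cells had 0 UMIs of both genes, which allows up to 22.4 and 49.4 UPM.

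*Krt8* was detected in 66.8% of basal (64.0 to 69.6), 49.5% of principal (47.2 to 51.8) and 63.4% of clear cells (57.0 to 69.6), against 3 of 200 endothelial cells. *Krt18* was detected in 65.2%, 39.6% and 67.2% of them, against 2.00% of endothelial cells. *Krt7* was in 32.1% of basal and 44.1% of clear cells, and *Krt19* in 25.4% of basal, 29.0% of principal and 3.78% of clear cells. These shares pool the libraries. By level, *Krt19* was higher in basal than principal cells in caput and corpus, and lower in vas deferens. Without thinning, the basal shares were 80.7% for *Krt14*, 48.6% for *Krt5*, 61.3% for *Krt7*, 72.2% for *Krt8*, 70.0% for *Krt18* and 40.6% for *Krt19*. The same basal cells held basal and simple keratins: 634 of the 1155 thinned basal cells (54.9%, 52.0 to 57.8) had both a *Krt14* and a *Krt8* UMI, and 308 (26.7%) both *Krt14* and *Krt7*.

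**Figure D4:**
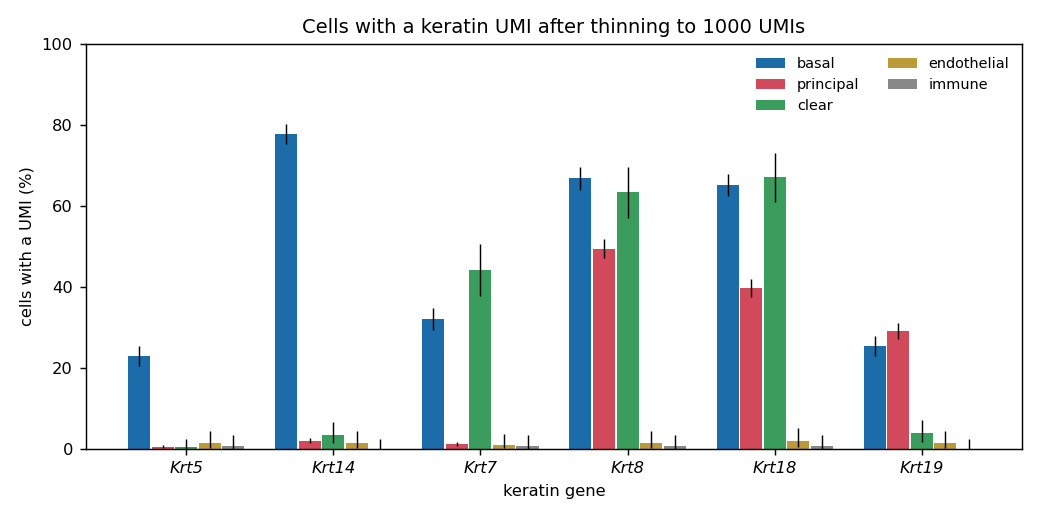
Share of cells with a UMI of each keratin after thinning to 1000 UMIs, by cell type over all libraries, with exact 95% binomial intervals. *Krt14* is in 77.8% of basal cells and 1.90% of principal cells, while *Krt8* and *Krt18* are in most basal and clear cells; endothelial and immune cells stay at or below 2.00%.

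*Krt5* and *Krt14* took 41.4% of the UMIs of the 6 keratins in basal cells, 1.10% in principal cells and 0.919% in clear cells. Along the duct the clear share was 0.162%, 0.180%, 0.413% and 7.96%, the last with the low-UMI clear cells that held basal markers. The principal share was 4.06%, 1.78%, 0.965% and 0.583%, and the basal share 46.7%, 40.0%, 36.4% and 45.5%. Cell by cell, among 1129 basal cells with at least 5 UMIs of the 6 keratins, the median share from *Krt5* and *Krt14* was 41.1%, with quartiles of 26.1% and 56.8%. It was between 20% and 80% in 894 of them (79.2%), under 20% in 191 (16.9%) and over 80% in 44 (3.90%). These are ranges of a continuous share and not cell types, and 185 of the basal cells lay within 5 points of a limit. Among 1179 principal cells 1161 (98.5%) were under 20%, as were 213 of 218 clear cells (97.7%).

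Few luminal cells lay above the 20% limit. Of the 18 principal cells that did, 10 came from the caput and 10 from principal 2, 8 had an *Adm* UMI and 4 were called as doublets. All 5 such clear cells came from the vas deferens, 4 of them from the low-UMI clear population described above, and 4 had an *Adm* UMI. Principal 2 also had the highest *Krt5* of the principal populations, at 35.5 UPM. The part that basal cells caught with principal cells have in these values was not tested.

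**Figure D5:**
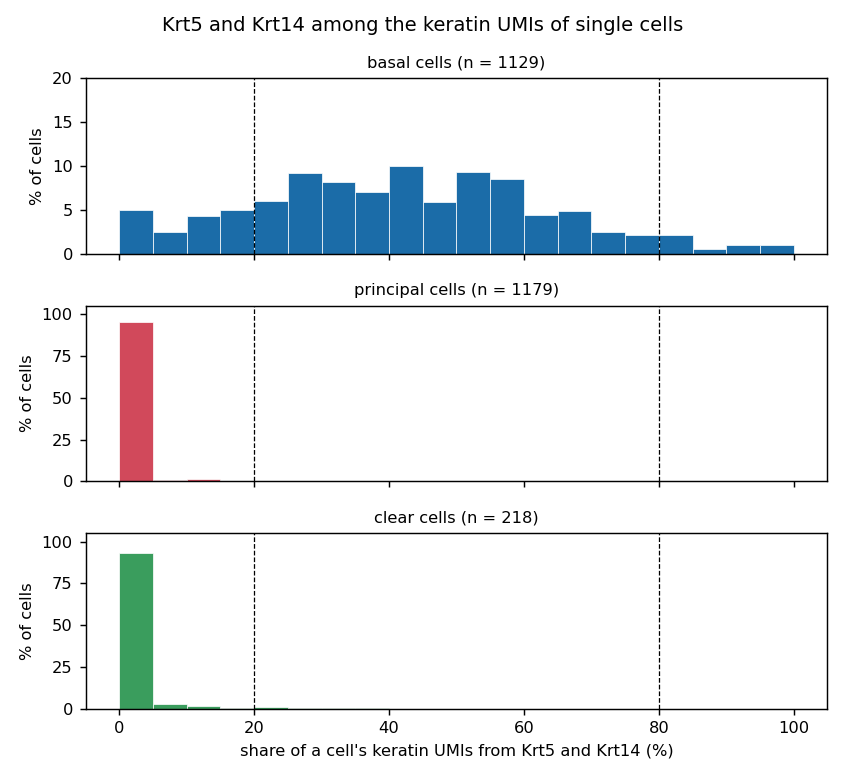
Share of a cell's UMIs of the 6 keratins that came from *Krt5* and *Krt14*, for cells with at least 5 UMIs of the 6 keratins, in bins of 5 points; dashed lines mark 20% and 80%. The 1129 basal cells spread broadly around a median of 41.1%, while 98.5% of principal and 97.7% of clear cells lie under 20%.

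Genes whose pattern over the 34 populations was most like each keratin were ranked by Pearson's r of log2(UPM + 10) among 11083 genes. The points share libraries and differ in depth, and r is given as a description. For *Krt5* they were *Serpinb5*, a serpin of myoepithelial and basal cells (r = 0.941), *Col17a1*, the hemidesmosomal collagen XVII (0.910), and *Lamb3*, a chain of laminin-332 (0.908). For *Krt14* they were *Krt17* (0.929), *Lamb3* (0.926) and *Serpinb5* (0.914). For *Krt7* they were *Car12*, a carbonic anhydrase (0.920), *Serinc2* (0.880) and *Map3k9* (0.859).

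Likeness to the simple pair was closest between its own members at this pseudocount, and next came *Epcam*, an epithelial adhesion molecule (0.938), and *Crb3*, an apical polarity protein (0.932), for *Krt8*, and *Dsp*, the desmosomal plaque protein that binds keratin filaments (0.929), and *Crb3* (0.927) for *Krt18*. At a pseudocount of 1 the 3 genes most like *Krt8* were *Prss8* (0.950), *Pard6b* (0.944) and *Marveld2* (0.930) in place of *Krt18*, and *Dsp* (0.934) came before *Krt8* (0.927) for *Krt18*. For *Krt19* they were *Ankrd22* (0.889), *Wnt7b*, a Wnt ligand (0.869), and *Mapk13*, a p38 kinase (0.866). Between the 6 themselves, *Krt5* and *Krt14* had r = 0.897, *Krt8* and *Krt19* 0.850, and *Krt5* and *Krt19* 0.124, the lowest of the pairs. *Krt7* had similar values with *Krt14* (0.589), *Krt5* (0.569) and *Krt18* (0.559), then *Krt8* (0.474).

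Of the other 31 keratins 19 had under 20 UMIs. The most abundant were *Krt17* (6114 UMIs), a type I keratin of basal and appendage epithelium, *Krt15* (3721), a type I keratin of basal layers, *Krt16* (577), *Krt10* (488) and *Krt32* (190). *Krt17* in basal cells had 678 UPM in caput, 965 in corpus, 882 in cauda and 1292 in vas deferens, above both *Krt5* and *Krt7* in every library. *Krt15* had 772, 667, 364 and 319 UPM, highest in caput as *Krt5* was. *Krt10* was not a basal gene here (12.5 UPM in basal and 28.0 in principal cells), and *Krt32*, a hair keratin, had 86 of its UMIs in cauda principal cells (49.4 UPM) and 81 in those of the vas deferens (17.3 UPM).

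Genes that anchor or organise keratin filaments were read from lists, with the same rule of 2-fold in every library; over all 7412 genes tested 9.57% were higher in basal and 6.68% in principal cells, and the median basal to principal ratio was 0.970. Of the desmosome list 7 of 11 members could be tested, 2 were higher in basal cells and 0 in principal cells, and the median ratio was 1.82. *Perp*, a desmosomal membrane protein, was at 897 UPM in basal and 96.9 in principal cells (9.26-fold, 8.63 to 9.93), whereas *Dsp* (2.00-fold, 1.84 to 2.18) and *Jup*, plakoglobin (1.82-fold, 1.66 to 1.99), were not at 2-fold in every library. The hemidesmosome list stood higher: 8 of 9 members were higher in basal cells and 0 in principal cells, with a median ratio of 12.0. Among its members *Itga6*, the integrin of the hemidesmosome, was at 12.0-fold (10.35 to 14.02) and *Plec*, the plectin linker that joins keratins to it, at 3.87-fold (3.53 to 4.25).

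Of the keratin organisers and plakins, 4 of 7 could be tested and 2 were higher in basal cells, with a median ratio of 3.52. *Sfn*, the 14-3-3 protein that binds keratins in stratified epithelium, had 1828 UPM in basal cells, about as much as *Krt8*, and 62.0 in principal cells (29.5-fold, 27.1 to 32.1). *Eppk1*, epiplakin, was at 3.55-fold (3.09 to 4.09) and *Ppl*, periplakin, at 2.13-fold, and neither reached 2-fold in every library. Of 9 other intermediate filament genes 4 could be tested and 2 were higher in basal cells, the lamins *Lmna* (3.48-fold, 3.32 to 3.65) and *Lmnb1* (8.75-fold, 6.49 to 12.0), while *Nes*, nestin, with 248 basal UMIs, had too few UMIs in some library for the rule. Of the 11 basal lineage genes 10 could be tested and all 10 were higher in basal cells, with a median ratio of 11.6: *Itgb1*, an integrin chain, was at 4.40-fold (4.15 to 4.68), and *Itga6* is given above. The study named *Itga6*, *Sfn*, *Cd44* and *Dll1* as basal genes on these same cells, so the counts of the lists that hold them are not independent evidence of direction.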

How the data were processed

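Reads were demultiplexed with bcl2fastq, barcodes were extracted with umitools, and reads were aligned by the authors to mm10 with HISAT2 2.0.4 and RefSeq transcripts. The deposited UMI counts per gene and cell were made by the authors with ESAT, which ignored reads mapping to several places, and UMIs seen once were then merged with better supported ones that differ by 1 base. The authors kept cells of 350 to 15000 UMIs and removed ambient RNA with a modified SoupX. That step took 3.54% of UMIs overall (4.48%, 4.04%, 3.61% and 2.80% in caput, corpus, cauda and vas deferens), and a low level in the wrong cell type can be left from it or be lost to it. The deposited score per cell is the authors' scran size factor, used here only in an alternative. Cell types were the deposited annotation.

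Counts were summed per population and library. Median depths per cell were 1599, 1433, 1741.5 and 2207 UMIs. Ratios carry exact conditional binomial intervals, shares Clopper-Pearson intervals, and a count of 0 was set to 3 UMIs per library. With 1 pooled library per region there were no replicates and no test, and PCR and sampling of animals are outside the intervals. A gene entered a comparison of types with at least 20 UMIs in both types together in each library, and the range over libraries with at least 20 UMIs in the library where it was highest. Doublets were called from simulated pairs (1500 variable genes, 30 components, 30 neighbours, 0.8% per 1000 cells): 178 cells (2.00%) were called, kept in the main values and left out in an alternative. The genes named beyond the 6 were the 3 most alike per keratin, the 5 most abundant other keratins and the 3 members of each list with most basal UMIs, of which some are not reported here. The members and lists were chosen with earlier results of these data known. The scripts were tested on simulated data. Promoter windows were RefSeq's, on GRCm38.p6, and a stretch was printed only for *Krt8* and *Krt18*. Alternatives were other folds, filters, scalings and thinning depths, doublets or doubtful populations left out, and each library left out. The work was done in Python 3.11.15 (pandas 2.3.3, numpy 2.4.6), with scipy 1.17.1 for the intervals, matplotlib 3.10.9 for figures and scikit-learn 1.9.0 for neighbours.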

Additional observations from a re-analysis of the deposited data

Results flagged for a closer look

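In 4 comparisons a keratin was higher in basal than luminal cells in some libraries and lower in others. *Krt8* was 2.81 times as high in basal as in principal cells in caput and 0.824 times as high in vas deferens. *Krt19* was 3.08 times as high in basal as in principal cells in corpus and 0.691 times as high in vas deferens. *Krt7* was 0.201 times as high in basal as in clear cells in caput and 3.27 times as high in vas deferens. *Krt18* was 0.458 times as high in basal as in clear cells in caput and 1.82 times as high in cauda. With 1 library per region none of these differences between regions was tested.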

How the results depend on the processing

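Of 66 recomputed counts of keratins past a fold limit, 63 stayed within 1.5 times the reported count. The count with a 2-fold range in basal cells was 0 of 6 at a 4-fold limit in place of 5. None of the 6 ranges reached 4, while 13.2% of all 7258 genes tested did. With each library left out in turn the count at 2-fold was 2 to 4 (2 without caput and 2 without cauda). The share of all genes tested was then 26% without caput, 38.5% without corpus, 32.2% without cauda and 34% without vas deferens. The pooled *Krt19* ratio of basal to principal cells turned from 0.667 to 1.553 as the geometric mean of within-library ratios, and ran from 0.5732 to 1.213 with each library left out, above 1 only without vas deferens. The pooled *Krt18* ratio of basal to clear cells was 1.09 and ran from 0.934 to 1.329 with each library left out, below 1 without corpus (0.992) and without cauda. Both turns come with the makeup of the pool, as within-library ratios were left as they were. Of the 60 recomputed basal to principal ratios 37 moved beyond their counting interval without turning, as did 27 of 60 basal to clear ratios, and the cause was not tested. Of 36 shares of cells with a UMI 28 moved with the thinning depth. Of 27 shares of cells by keratin makeup 8 moved with the minimum of keratin UMIs, and 9 of 18 counts of shared genes among the 3 most like a keratin moved with the pseudocount, the populations or the minimum of UMIs. Depth limits *Krt5* in principal and clear cells, *Krt7* in principal cells of vas deferens and *Krt14* in clear cells of caput and corpus, each at 5 UMIs or fewer in some library. No paired test was made. Cell types could be paired by library, but they were set by the same counts and were only set side by side there. Regions are 1 pooled library each.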
